A study of Homo sapiens with 25 samples.

Results

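The 47 genes described here encode the machinery that licenses, fires and copies from DNA replication origins. The list is by name and function, with no cut on a measured value, although it was drawn up with earlier results of these data known, and genes were matched to the count table by NCBI Gene number. All 47 were among the 28395 genes of the table, and all 47 passed the filter on low counts that left 14658 genes for testing. By role they comprise the 6 subunits of the origin recognition complex, 4 helicase loading factors or their regulators, the 6 MCM2-7 subunits, 6 genes of CDC45, GINS and MCM10, and 4 of polymerase alpha-primase. The others are 5 subunits of polymerases delta and epsilon, 8 genes of the sliding clamp and its loaders, 3 of RPA, 2 of flap removal and ligation, and 3 of fork protection.

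Replication origins are licensed when the origin recognition complex, CDC6 and CDT1 load the MCM2-7 helicase onto DNA as an inactive ring. In S phase the ring is joined by CDC45 and GINS to form the active CMG helicase, and polymerase alpha-primase, polymerases delta and epsilon, the PCNA clamp and RFC follow at the fork. Many of these genes are transcribed from E2F-controlled promoters around the start of S phase, and CHK1, the kinase that prexasertib inhibits, restrains origin firing and protects forks when replication is disturbed.

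Messenger RNA was measured in 12 libraries of the established human lung carcinoma line A549, in which TRRAP, a scaffold subunit of histone acetyltransferase complexes, carries the auxin-inducible degron mAID. The cells of all 12 had been arrested with 2 mM thymidine over 20 h, then freed of it for 4 h, and the design text of the series calls them S-phase cells. The groups, of 3 libraries each, were DMSO, prexasertib for 3 h, 5-Ph-IAA at 1 µM for 6 h to degrade TRRAP, and 5-Ph-IAA with prexasertib, called both drugs below. The prexasertib dose of the labels is not used, because the RNA and the chromatin labels give it in different units. The genotype label reads WT although the cells grown are described as mAID TRRAP, and the labels do not say whether the line is 1 clone. A group with 5-Ph-IAA in cells without the degron is not analysed here, so TRRAP loss and other actions of the compound cannot be told apart. The labels also do not say whether the libraries of a group are separate cultures, so p-values measure the spread between these libraries, which may be technical.

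The promoters of 40 of the 47 genes were in the RefSeq table used here (GRCh38.p14, 250 bases before and 50 after each gene start). The 250 upstream bases of 5 of them are shown, since they belong to genes that moved differently and differ in their matches to the E2F motif. MCM3 (chr6:52284743-52284992, minus strand) and MCM6 (chr2:135876444-135876693, minus strand) encode helicase subunits. DTL (chr1:212035498-212035747, plus strand) encodes a subunit of a ubiquitin ligase that destroys CDT1, PCNA (chr20:5126623-5126872, minus strand) the clamp, and MCM10 (chr10:13161308-13161557, plus strand) a factor that activates the helicase. Sequences run 5′ to 3′ on the gene's strand, and capitals mark matches to the E2F letters TTTCCCGC, TTTGGCGC, TTTCGCGC or TTTGCCGC on either strand.
MCM3: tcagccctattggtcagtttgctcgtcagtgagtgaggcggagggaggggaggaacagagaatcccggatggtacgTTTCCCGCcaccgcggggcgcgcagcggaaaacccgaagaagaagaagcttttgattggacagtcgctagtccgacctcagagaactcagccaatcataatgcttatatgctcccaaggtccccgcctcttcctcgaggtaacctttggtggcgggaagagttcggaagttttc
MCM6: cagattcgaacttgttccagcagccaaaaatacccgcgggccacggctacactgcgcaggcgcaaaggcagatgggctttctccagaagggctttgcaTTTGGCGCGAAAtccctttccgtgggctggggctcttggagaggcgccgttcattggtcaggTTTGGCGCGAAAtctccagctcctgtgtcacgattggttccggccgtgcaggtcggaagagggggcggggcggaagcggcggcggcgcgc
DTL: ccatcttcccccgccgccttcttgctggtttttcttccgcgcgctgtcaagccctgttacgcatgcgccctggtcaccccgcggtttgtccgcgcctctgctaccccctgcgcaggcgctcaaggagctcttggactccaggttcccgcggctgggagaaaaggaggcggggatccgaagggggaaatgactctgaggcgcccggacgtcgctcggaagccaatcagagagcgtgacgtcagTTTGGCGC
PCNA: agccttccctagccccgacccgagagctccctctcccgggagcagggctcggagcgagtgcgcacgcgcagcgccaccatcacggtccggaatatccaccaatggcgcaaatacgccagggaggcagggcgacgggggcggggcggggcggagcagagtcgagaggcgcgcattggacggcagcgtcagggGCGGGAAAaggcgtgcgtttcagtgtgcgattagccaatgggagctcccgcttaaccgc
MCM10: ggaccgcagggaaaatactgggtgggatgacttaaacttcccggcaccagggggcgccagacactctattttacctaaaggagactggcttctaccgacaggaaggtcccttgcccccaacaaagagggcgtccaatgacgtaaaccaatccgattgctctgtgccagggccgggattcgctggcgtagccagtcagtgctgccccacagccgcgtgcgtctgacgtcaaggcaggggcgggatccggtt
Each of the 2 capital runs of MCM6 holds 2 overlapping matches on opposite strands, and the shown MCM10 bases hold none. Over the whole 300-base window, 18 of the 40 promoters (45%) had an E2F match, against 3.33% of the 27305 promoters of the table. The CCAAT box was matched in 24 of 40 (60%, against 35.7%) and the E-box CACGTG in 6 (15%, against 7.43%). A CHR element, searched as TTTGAA or TTCGAA, was matched in 1 of 40, MCM6 (2.5%, against 16.6%). All motifs were searched on both strands. By role, an E2F match stood in 4 of the 4 MCM2-7 promoters in the table, in 3 of 4 of the loading factor group, in 1 of 6 of the origin recognition complex, in 2 of 7 of the clamp group and in 0 of 3 of the fork protection genes. The members called lower with 5-Ph-IAA had a match in 10 of 16 promoters, those called lower with prexasertib in 5 of 8, and those called in none of the 4 drug comparisons in 6 of 19. These matches are a description of letters, not of binding.

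Total counts ran from 10830048 to 17789482 per library. TMM scaling factors lay between 0.925 and 0.978 in the libraries without 5-Ph-IAA and between 1.02 and 1.1 in those with it. TRRAP mRNA lay between 63.6 and 94.5 CPM (counts scaled to a common library size by edgeR) in the 6 libraries without 5-Ph-IAA and between 99.7 and 150 CPM in the 6 with it. The degron acts on the protein, so these levels check no label. Of the 6 epithelial markers, KRT8, KRT18 and KRT7 averaged 3250, 2110 and 3010 CPM and CDH1 98.8 CPM, while EPCAM and KRT19 averaged 0.807 and 4.24 CPM. The summed level of 14 markers of other cell types was 113 to 143 CPM in every library, most of it from SNAP25, COL1A1 and CD68, at 48.4, 31.7 and 30.6 CPM, while PTPRC, CD3E, HBB and PECAM1 each averaged under 0.1 CPM. Of the 7 of them that were tested, PDGFRB was called higher with 5-Ph-IAA (log2 fold change 1.45 ± 0.34, edgeR adjusted p = 0.0084), with group means of 0.892 CPM in DMSO and 2.71 CPM with 5-Ph-IAA on library size, and its part in the values below was not tested. For 5-Ph-IAA against prexasertib 2 of the 7 were called higher and 1 lower. Among the 6 epithelial markers, 2 were called lower with 5-Ph-IAA (33.3%, against 12.2% of all genes tested). For 5-Ph-IAA against prexasertib 3 of the 6 were called lower (50%, against 13.6%). None of the 6 was called with prexasertib alone, or for both drugs against either single drug. The libraries numbered 3 stood apart: they were the highest of their group for 40 members in DMSO, for 37 in each single-drug group and for 32 with both drugs, and counts are therefore also given without them.

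Most members had negative log2 fold changes wherever a drug was added: 39 of 47 with prexasertib, 39 with 5-Ph-IAA, and 38 when either was added to the other. With prexasertib alone 9 of 47 were called lower and 1 higher at an adjusted p under 0.05 (edgeR quasi-likelihood test, Benjamini-Hochberg over all genes tested), which is 19.1% and 2.13% of members against 2.37% and 2.36% of all genes tested. With 5-Ph-IAA alone 19 were called lower (40.4% against 12.2%) and 0 higher (9.65% of all genes). Against prexasertib alone, both drugs had 16 members called lower and 1 higher (34% against 10.4%, and 2.13% against 7.85%). Against 5-Ph-IAA alone, both drugs had 8 called lower and 1 higher (17% against 1.26%, and 2.13% against 1.17%). The median log2 fold changes of the 47 were -0.21, -0.36, -0.29 and -0.14 in these 4 comparisons, and those of all genes tested lay between 0 and 0.01. In the same order, 16, 23, 20 and 16 members had every library of the treated group below every library of its control, against 11.3%, 18.9%, 17.6% and 10.7% of all genes.

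**Figure D1:**
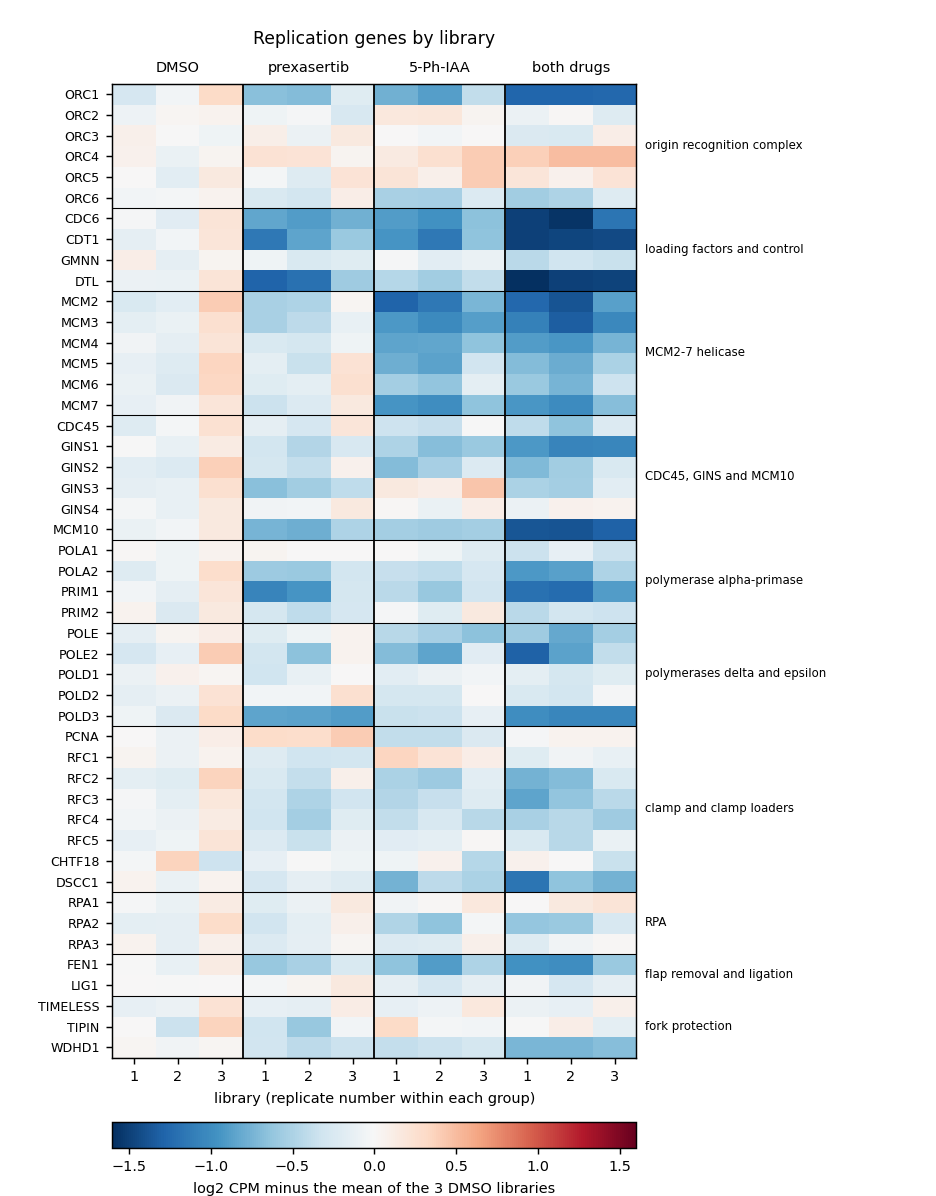
Level of the 47 replication genes in each of the 12 libraries, as log2 CPM minus the mean of the 3 DMSO libraries (colour scale), in columns by group and replicate number and in rows by role. Blue cells predominate in the 3 treated groups; CDC6, CDT1, DTL and MCM10 are darkest with both drugs, PCNA is red with prexasertib, and column 3 of each group is redder than columns 1 and 2 for most genes.

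These counts depended on single libraries and on the replicate number. With the replicate number as a block, which the libraries share across groups, members called lower numbered 20, 30, 30 and 16 in the 4 comparisons, and those called higher were 1, 4, 2 and 1. The same block called 9.77%, 23.6%, 19.9% and 7.7% of all genes lower, and 8.37%, 19%, 17.2% and 7.8% higher. With numbers 1 and 2 only, members called lower were 17, 26, 27 and 15 (7.01%, 19.3%, 17.4% and 7.68% of all genes). Those called higher were 1, 4, 2 and 1 (7.2%, 16.7%, 13.1% and 6.18% of all genes). Below, edgeR without the block means the fit to all 12 libraries. With prexasertib alone, leaving out DMSO replicate 1 or prexasertib replicate 2 left 5 members lower. Between both drugs and 5-Ph-IAA, 3 remained called on leaving out both drugs replicate 1 or 2, and 4 on leaving out 5-Ph-IAA replicate 1 or 2. Library size as the only scaling moved the median of all genes to 0.16 with 5-Ph-IAA and to 0.15 for both drugs against prexasertib, and the share of higher calls among all called genes went from 44.2% to 75.4% and from 43% to 74.3%. Members then split into 5 higher and 14 lower with 5-Ph-IAA, and 3 higher and 12 lower for both drugs against prexasertib. The shares of all genes tested that were called each way under library size alone are not given here. For prexasertib against DMSO and both drugs against 5-Ph-IAA, that scaling moved the share of higher calls among all genes from 49.9% to 37.3% and from 48.2% to 31.6%. It turned the sign of 2, 8, 5 and 5 members in the 4 comparisons, none of them called there. In bulk RNA, fewer cells at one stage of the cycle and less RNA of a gene per cell cannot be told apart. Of 12 G2/M genes, 10 were called higher with prexasertib (median log2 fold change 0.54), against 2.36% of all genes tested. With 5-Ph-IAA 12 were called lower (median -1.07), against 12.2%. For both drugs 12 were called lower against prexasertib (10.4% of all genes) and 10 higher against 5-Ph-IAA (1.17%). In DMSO, prexasertib, 5-Ph-IAA and both drugs, in that order, cyclin B1 (CCNB1) averaged 526 ± 33.3, 856 ± 18, 241 ± 27.7 and 524 ± 36.4 CPM (SD, n = 3), and the mitotic kinase PLK1 averaged 337 ± 23.4, 481 ± 50.8, 139 ± 9.75 and 266 ± 9.46 CPM. Whether a shift in cycle stage took part in the values below was not tested.

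Of the 4 helicase loading factors and regulators, CDC6, CDT1 and DTL fell with each drug alone. CDC6 (NCBI Gene 990, chromosome 17, 40287879 to 40304657, as are all positions here in GRCh38) is the ATPase that brings the helicase to origins. It was at 104, 93.5 and 121 CPM in the DMSO libraries numbered 1 to 3, at 59.5, 56.5 and 62 CPM with prexasertib, at 56.8, 53.9 and 66.6 CPM with 5-Ph-IAA, and at 37.3, 35.5 and 46.9 CPM with both drugs. Every single-drug library lay below every DMSO library, and every library with both drugs lay below every single-drug library. On the log2 scale CDC6 fell by 0.84 ± 0.12 with prexasertib (SE, edgeR adjusted p = 0.0015) and by 0.85 ± 0.12 with 5-Ph-IAA (adjusted p = 0.00029). Adding the other drug lowered it further, by 0.57 ± 0.12 when 5-Ph-IAA was added (adjusted p = 0.006) and by 0.56 ± 0.12 when prexasertib was added (adjusted p = 0.027). The last call was lost without 5-Ph-IAA replicate 1 or 3 or both drugs replicate 1 or 2 (adjusted p up to 0.14).

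CDT1 (NCBI Gene 81620, chromosome 16, 88803789 to 88809258), the partner of CDC6 in loading, followed the same order. Its levels were 41.4, 44.5 and 52.4 CPM in DMSO, 20.7, 25.6 and 30.3 CPM with prexasertib, 23.9, 20.8 and 29.3 CPM with 5-Ph-IAA, and 16.3, 16.4 and 16.7 CPM with both drugs. The single-drug groups overlapped one another, and neither reached the DMSO or the both-drug range. CDT1 fell by 0.85 ± 0.15 with prexasertib (edgeR adjusted p = 0.0054), by 0.91 ± 0.15 with 5-Ph-IAA (adjusted p = 0.00078) and by 0.63 ± 0.16 for both drugs against prexasertib (adjusted p = 0.012). Both drugs against 5-Ph-IAA gave -0.58 ± 0.15 (adjusted p = 0.069, and 7.4e-05 with the block and 0.022 by DESeq2).

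DTL, the substrate receptor of the CRL4 ubiquitin ligase that removes CDT1 at PCNA, was chosen for its values and not by the rule for named genes. Its mean was 52.5 ± 6.47 CPM in DMSO (SD, n = 3), 26.5 ± 7.57 after prexasertib, 37.7 ± 2.22 after 5-Ph-IAA and 17.5 ± 1.81 after the combination. It was called lower by edgeR in all 4 comparisons, by 0.99 ± 0.16 and 1.11 ± 0.17 when prexasertib was added (edgeR adjusted p = 0.0036 and 0.0027) and by 0.48 ± 0.16 and 0.59 ± 0.17 when 5-Ph-IAA was added (adjusted p = 0.045 and 0.027). The call for 5-Ph-IAA against DMSO was lost without any one of the libraries of DMSO, 5-Ph-IAA or both drugs (adjusted p up to 0.15), and that for both drugs against prexasertib without prexasertib replicate 3 or both drugs replicate 1 or 2. Under library size alone the 5-Ph-IAA values were -0.32 without prexasertib (adjusted p = 0.13) and -0.45 with it (adjusted p = 0.056), neither of them called, and the strict filter (50 counts in every group mean) also ended the first call (-0.44, adjusted p = 0.054). GMNN, the CDT1 inhibitor geminin, was called in none of the 4 drug comparisons by edgeR without the block, with log2 fold changes from -0.27 to -0.10, of which the one for 5-Ph-IAA turned positive under library size alone, while the block called it lower in both comparisons of both drugs with 1 drug (adjusted p = 0.031 and 0.0078). On numbers 1 and 2 only, GMNN was called lower for both drugs against 5-Ph-IAA (-0.30, edgeR adjusted p = 0.026).

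**Figure D2:**
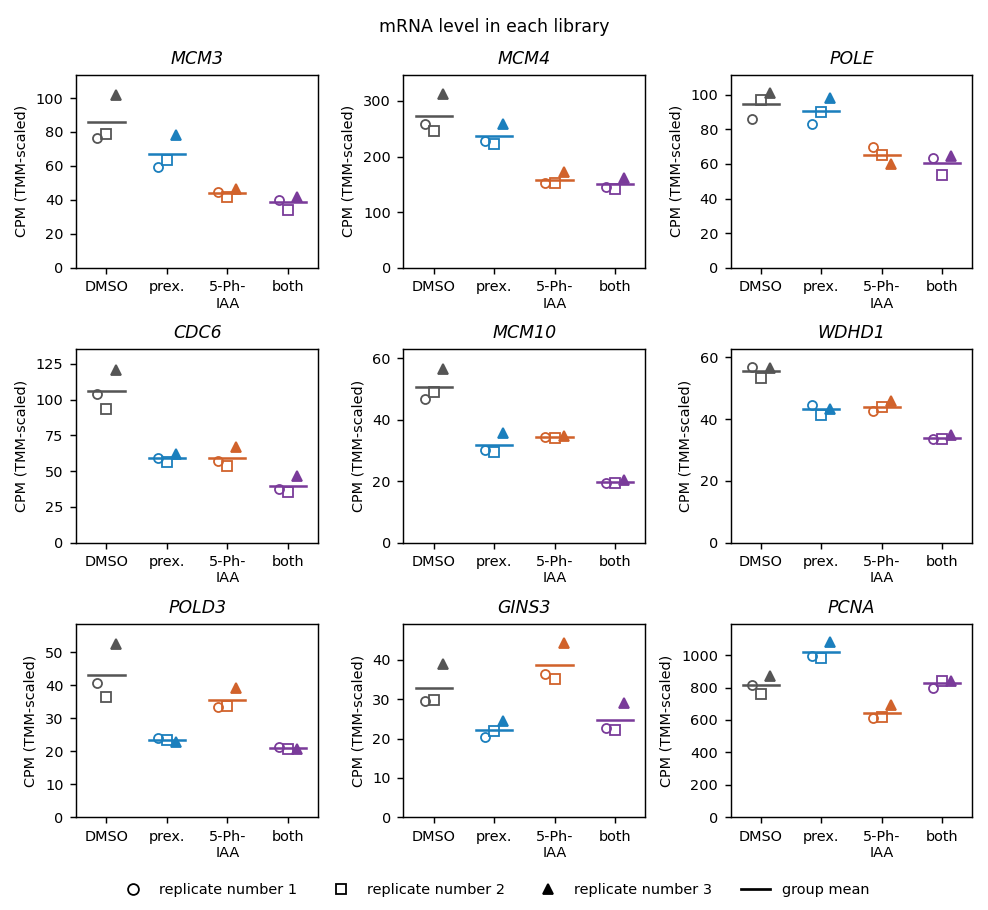
CPM on TMM-scaled library sizes for 9 of the replication genes in each library (points, shaped by replicate number) with group means (lines), every axis starting at 0. MCM3, MCM4 and POLE step down at 5-Ph-IAA, CDC6, MCM10 and WDHD1 at each drug, POLD3 and GINS3 at prexasertib, and PCNA moves in opposite directions with the 2 drugs.

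Of MCM2-7, the helicase core itself, 5 subunits fell with 5-Ph-IAA, the sixth, MCM6, was called lower there with the block, and none was called with prexasertib by edgeR without the block. With 5-Ph-IAA alone 5 of the 6 subunits were called lower (group median log2 fold change -0.82), against 12.2% of all genes tested. The same 5 were called lower for both drugs against prexasertib (median -0.71), against 10.4%. With prexasertib alone 0 of 6 were called (median -0.17, edgeR), and 0 of 6 for both drugs against 5-Ph-IAA (median -0.10). Of all genes, 2.37% and 1.26% were called lower in these 2 comparisons. At an unadjusted p under 0.05 the 2 counts of subunits were 1 and 0. DESeq2 and limma-voom also called 0 in both. For both drugs against prexasertib DESeq2 called 6, and limma-voom and library size alone 4 each, without MCM5 (adjusted p = 0.05 and 0.075). With prexasertib alone the block called MCM2, MCM3 and MCM4 lower (log2 fold changes of -0.33, -0.36 and -0.20, adjusted p = 0.00014, 0.00033 and 0.0033). MCM2, MCM3 and MCM7 were called lower with prexasertib on numbers 1 and 2 only (-0.30, -0.34 and -0.18, edgeR adjusted p = 0.0076, 0.0058 and 0.045).

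MCM4 (NCBI Gene 4173, chromosome 8, 47960941 to 47978160) was at 259, 245 and 313 CPM in DMSO, 228, 223 and 258 CPM with prexasertib, 152, 152 and 172 CPM with 5-Ph-IAA, and 146, 142 and 162 CPM with both drugs. All 6 libraries with 5-Ph-IAA lay below all 6 without it. The fall with 5-Ph-IAA was 0.78 ± 0.098 without prexasertib (SE, edgeR adjusted p = 0.00012) and 0.66 ± 0.098 with it (adjusted p = 0.00051). Prexasertib gave -0.21 ± 0.097 (adjusted p = 0.29) and -0.08 ± 0.098 (adjusted p = 0.79).

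MCM3 (NCBI Gene 4172, chromosome 6, 52264015 to 52284742) had 76.2, 79 and 102 CPM in DMSO, 59.1, 63.4 and 78.4 CPM with prexasertib, 44.9, 41.7 and 46.2 CPM with 5-Ph-IAA, and 40.2, 34 and 41.7 CPM with both drugs. Here too every library with 5-Ph-IAA, alone or with prexasertib, lay below every library without it. MCM3 fell by 0.96 ± 0.13 with 5-Ph-IAA (edgeR adjusted p = 0.00022) and by 0.79 ± 0.13 when 5-Ph-IAA was added to prexasertib (adjusted p = 0.0011), against -0.36 ± 0.13 (adjusted p = 0.15) and -0.19 ± 0.13 (adjusted p = 0.58) for prexasertib.

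MCM2, MCM7 and MCM5 had the same order of group means. Given as before from DMSO to both drugs, MCM2 averaged 110 ± 29, 86.8 ± 19.9, 52.5 ± 10.9 and 48.3 ± 9.2 CPM (SD, n = 3). MCM7 averaged 277 ± 33.7, 253 ± 47, 152 ± 21 and 151 ± 18 CPM, and MCM5 averaged 75.9 ± 16.2, 71 ± 15.2, 48.3 ± 10.3 and 47 ± 4.85 CPM. In each of the 3 genes the mean with both drugs lay within 1 SD of the mean with 5-Ph-IAA. The falls with 5-Ph-IAA were 1.06 ± 0.22, 0.86 ± 0.14 and 0.65 ± 0.19 (edgeR adjusted p = 0.0059, 0.001 and 0.026). MCM6 gave -0.46 ± 0.18 (adjusted p = 0.089) and -0.53 ± 0.18 for both drugs against prexasertib (adjusted p = 0.061), and was called in both with the block (adjusted p = 2.2e-07 and 1.4e-08). MCM5 lost its call with 5-Ph-IAA without replicate 3 of DMSO or replicate 1 or 2 of 5-Ph-IAA (adjusted p up to 0.11), and without the filter on low counts (adjusted p = 0.056). For both drugs against prexasertib (adjusted p = 0.048), MCM5 was called only on leaving out replicate 2 or 3 of DMSO or of 5-Ph-IAA or replicate 2 of prexasertib, and MCM2 (adjusted p = 0.023) lost its call without prexasertib replicate 3 or both drugs replicate 1 or 2. Without the filter on low counts both were not called there (adjusted p = 0.095 and 0.064). MCM7 overlaps AP4M1 on the opposite strand, and the strand setting of the counts is not given in the sources used here, so its level is uncertain to that extent.

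In the origin recognition complex ORC1 and ORC6 fell with 5-Ph-IAA, and ORC4 rose when 5-Ph-IAA was added to prexasertib. ORC1 (NCBI Gene 4998, chromosome 1, 52372829 to 52409503), the subunit that cycles with the cell cycle, was at 25.6, 29.9 and 38.3 CPM in DMSO, 19.4, 18.9 and 26.9 CPM with prexasertib, 18.1, 16.7 and 23.5 CPM with 5-Ph-IAA, and 12.7, 12.7 and 12.8 CPM with both drugs. The both-drug libraries lay below all others, and DMSO and prexasertib overlapped. ORC1 fell by 0.69 ± 0.17 with 5-Ph-IAA (edgeR adjusted p = 0.012) and by 0.77 ± 0.18 when 5-Ph-IAA was added to prexasertib (adjusted p = 0.01). The first of these calls was lost without replicate 3 of DMSO or replicate 1 or 2 of 5-Ph-IAA (adjusted p up to 0.061). The prexasertib values were -0.53 ± 0.17 (adjusted p = 0.12) and -0.60 ± 0.18 (adjusted p = 0.11), and the block called both (adjusted p = 0.00021 and 0.00015). ORC1 overlaps PRPF38A on the opposite strand.

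ORC6 (NCBI Gene 23594, chromosome 16, 46689659 to 46698394) was at 60.1, 60.5 and 64.5 CPM in DMSO, 52.4, 50.1 and 66.3 CPM with prexasertib, 43.1, 42.8 and 53 CPM with 5-Ph-IAA, and 41.7, 43.8 and 53.4 CPM with both drugs. The 5-Ph-IAA libraries lay below DMSO, while prexasertib replicate 3 was above it. ORC6 fell by 0.42 ± 0.13 with 5-Ph-IAA (edgeR adjusted p = 0.03). That call was lost without any one DMSO library or 5-Ph-IAA replicate 1 or 2 (adjusted p up to 0.12), and with library size as the only scaling (-0.26, adjusted p = 0.1). ORC4 had 64.9 ± 2.81 CPM for both drugs against 53.2 ± 3.92 for prexasertib (SD, n = 3), a rise of 0.28 ± 0.09 (edgeR adjusted p = 0.042). It kept that call on leaving out replicate 2 or 3 of DMSO or replicate 1 or 3 of 5-Ph-IAA and lost it without any other library (adjusted p up to 0.14). The call was also lost without the filter on low counts (adjusted p = 0.064) and with numbers 1 and 2 only (adjusted p = 0.079). With 5-Ph-IAA alone ORC4 gave 0.26, which DESeq2 (adjusted p = 0.039) and the block (adjusted p = 0.0054) called higher. By edgeR without the block, ORC2, ORC3 and ORC5 were called in none of the 4 drug comparisons, with group means between 32.8 and 49.6 CPM. The block called ORC5 higher with 5-Ph-IAA (0.23, adjusted p = 0.018) and ORC2 lower for both drugs against 5-Ph-IAA (-0.22, adjusted p = 0.041). Under library size alone ORC2 and ORC5 were called higher with 5-Ph-IAA (0.29, adjusted p = 0.045, and 0.38, adjusted p = 0.02). ORC2 was also called higher with 5-Ph-IAA on numbers 1 and 2 only (0.22, edgeR adjusted p = 0.048). ORC3 and ORC4 also overlap genes on the opposite strand.

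Among the genes that turn MCM2-7 into the active helicase, MCM10 and GINS1 fell with each drug, and GINS3 with prexasertib. MCM10 (NCBI Gene 55388, chromosome 10, 13161558 to 13211110) was at 46.6, 48.9 and 56.4 CPM in DMSO, 30, 29.4 and 35.8 CPM with prexasertib, 34.5, 34 and 34.7 CPM with 5-Ph-IAA, and 19.4, 19.3 and 20.4 CPM with both drugs. No single-drug library reached the DMSO range, and no both-drug library reached the single-drug range. MCM10 fell by 0.67 ± 0.099 with prexasertib (edgeR adjusted p = 0.0017) and by 0.56 ± 0.097 with 5-Ph-IAA (adjusted p = 0.0013). Both drugs lowered it by 0.68 ± 0.1 against prexasertib (adjusted p = 0.00051) and by 0.80 ± 0.1 against 5-Ph-IAA (adjusted p = 0.00067). All 4 calls held on leaving out each of the 12 libraries in turn.

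GINS1 (NCBI Gene 9837, chromosome 20, 25407673 to 25448563), a subunit of the GINS tetramer, was at 79.1, 72.9 and 87 CPM in DMSO, 64.7, 57.2 and 66.3 CPM with prexasertib, 56.2, 49.6 and 52.6 CPM with 5-Ph-IAA, and 41.9, 38 and 38.7 CPM with both drugs. The 4 groups did not overlap. It fell by 0.59 ± 0.09 with 5-Ph-IAA (edgeR adjusted p = 0.00046) and by 0.34 ± 0.09 with prexasertib (adjusted p = 0.044). The prexasertib call held on leaving out DMSO replicate 2 or 5-Ph-IAA replicate 3 and was lost without any other library (adjusted p up to 0.19) and with RLE factors (adjusted p = 0.054). Both drugs gave a fall of 0.67 ± 0.092 against prexasertib (adjusted p = 0.00027) and of 0.42 ± 0.091 against 5-Ph-IAA (adjusted p = 0.027), the latter lost without 5-Ph-IAA replicate 1 or 2 or any one both-drug library (adjusted p up to 0.14).

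GINS3, another subunit of the same tetramer, was also chosen for its values and fell with prexasertib. Its means were 32.8 ± 5.35 CPM in DMSO (SD, n = 3), 22.3 ± 2.06 after prexasertib, 38.6 ± 4.98 after 5-Ph-IAA and 24.7 ± 3.75 after the combination. Both prexasertib groups lay below their controls in every library. GINS3 fell by 0.56 ± 0.14 with prexasertib (edgeR adjusted p = 0.042) and by 0.64 ± 0.14 when prexasertib was added to 5-Ph-IAA (adjusted p = 0.029). The first call was kept only without prexasertib replicate 3, 5-Ph-IAA replicate 3 or both drugs replicate 3, and the second was lost without any one 5-Ph-IAA library or both drugs replicate 1 or 2 (adjusted p up to 0.17 and 0.15). The first call was also lost with limma-voom (adjusted p = 0.059). With 5-Ph-IAA it gave 0.23 ± 0.14 (adjusted p = 0.27, and 0.023 with the block). By edgeR without the block, CDC45, GINS2 and GINS4 were called in none of the 4 drug comparisons. The block called CDC45 lower with 5-Ph-IAA alone (-0.24, adjusted p = 0.035) and added to prexasertib (-0.35, adjusted p = 0.0037), and GINS2 likewise (-0.49, adjusted p = 2.8e-05, and -0.31, adjusted p = 0.0081). CDC45 was called lower for both drugs against prexasertib on numbers 1 and 2 only (-0.32, edgeR adjusted p = 0.041). That fit also called GINS2 lower there (-0.31, adjusted p = 0.039) and with 5-Ph-IAA alone (-0.39, adjusted p = 0.0057). GINS4 was the flattest gene of the group, with means of 95.9 to 97.2 CPM in the 4 groups. GINS2 overlaps GSE1 on the opposite strand by 3 bases only.

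Polymerase alpha-primase, which lays the RNA-DNA primer, had 1 of 4 members called lower with prexasertib by edgeR (2.37% of all genes tested). With 5-Ph-IAA edgeR called 0 (12.2% of all genes lower), with 2 at an unadjusted p under 0.05, and DESeq2 or limma-voom called 0. PRIM1 (NCBI Gene 5557, chromosome 12, 56731580 to 56752323), the catalytic primase subunit, was at 22.4, 20.7 and 26.4 CPM in DMSO, 10.9, 11.8 and 19 CPM with prexasertib, 17, 15.1 and 18.6 CPM with 5-Ph-IAA, and 10, 9.76 and 12.2 CPM with both drugs. Prexasertib replicate 3 stood well above the other libraries of its group and still below DMSO. PRIM1 fell by 0.74 ± 0.19 with prexasertib (edgeR adjusted p = 0.039). That call was kept only without prexasertib replicate 3, 5-Ph-IAA replicate 3 or both drugs replicate 3 (adjusted p up to 0.18). The values for 5-Ph-IAA alone and for prexasertib added to 5-Ph-IAA were -0.46 ± 0.18 (adjusted p = 0.092) and -0.66 ± 0.19 (adjusted p = 0.098), and the block called both (adjusted p = 0.0011 and 8.7e-05).

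POLA1 (NCBI Gene 5422, chromosome X, 24693918 to 24996986), the catalytic polymerase subunit, was lowest with both drugs. Its libraries were at 53.4, 50.3 and 54.6 CPM in DMSO, 54, 53.2 and 53.1 CPM with prexasertib, 52.9, 50.1 and 45.5 CPM with 5-Ph-IAA, and 41.6, 48.2 and 41.5 CPM with both drugs. Both-drug libraries lay below all DMSO and prexasertib libraries and overlapped those of 5-Ph-IAA. POLA1 fell by 0.29 ± 0.086 for both drugs against prexasertib (edgeR adjusted p = 0.032), a call lost without any one prexasertib library or both drugs replicate 1 or 3 (adjusted p up to 0.11), under library size alone (-0.15, adjusted p = 0.26) and with the strict filter (-0.25, adjusted p = 0.052). POLA2 gave -0.50 ± 0.14 with prexasertib (adjusted p = 0.059, and 0.024 by DESeq2), and the block called it lower in all 4 comparisons. Of the 4 drug comparisons, PRIM2, which overlaps RAB23 on the opposite strand, was called with the block for prexasertib in both arms (-0.33, adjusted p = 0.039, and -0.34, adjusted p = 0.031), and by no other tool or scaling. For 5-Ph-IAA against prexasertib the block called it higher (0.31, adjusted p = 0.025), as did library size alone (0.50, adjusted p = 0.0056).

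Of the 5 genes of the replicative polymerases, 1 was called lower with each drug alone. Of all genes tested, 2.37% were called lower with prexasertib and 12.2% with 5-Ph-IAA. POLE (NCBI Gene 5426, chromosome 12, 132623762 to 132687342), the catalytic subunit of the leading-strand polymerase, was at 85.8, 97 and 101 CPM in DMSO, 83, 90.1 and 98 CPM with prexasertib, 69.6, 65.4 and 59.7 CPM with 5-Ph-IAA, and 63.4, 53.5 and 64.6 CPM with both drugs. All 6 libraries with 5-Ph-IAA were below the 6 without it, and DMSO and prexasertib overlapped. POLE fell by 0.54 ± 0.098 with 5-Ph-IAA (edgeR adjusted p = 0.0015) and by 0.58 ± 0.099 when 5-Ph-IAA was added to prexasertib (adjusted p = 0.0013), against -0.07 ± 0.098 (adjusted p = 0.82) for prexasertib. Both calls held on leaving out each library in turn.

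POLD3 (NCBI Gene 10714, chromosome 11, 74592582 to 74669341), an accessory subunit of polymerase delta, was at 40.8, 36.3 and 52.6 CPM in DMSO, 23.9, 23.4 and 22.8 CPM with prexasertib, 33.3, 33.8 and 39 CPM with 5-Ph-IAA, and 21.4, 20.8 and 20.7 CPM with both drugs. The 6 libraries with prexasertib lay within 20.7 to 23.9 CPM, below all 6 without it. POLD3 fell by 0.89 ± 0.12 with prexasertib (edgeR adjusted p = 0.0012) and by 0.75 ± 0.12 when prexasertib was added to 5-Ph-IAA (adjusted p = 0.0048), and both calls held on leaving out each library in turn. With 5-Ph-IAA alone it gave -0.29 ± 0.12 (adjusted p = 0.1, and 0.0092 with the block). By edgeR without the block, POLD1, POLD2 and POLE2 were called in none of the 4 drug comparisons. For 5-Ph-IAA alone and added to prexasertib, the block called POLE2 lower (-0.59, adjusted p = 0.0014, and -0.57, adjusted p = 0.005) and POLD2 lower (-0.18, adjusted p = 0.004, and -0.25, adjusted p = 0.00023). On numbers 1 and 2 only, POLE2 was called lower in both (-0.57 and -0.64, edgeR adjusted p = 0.02 in each). POLD2 was called lower there when 5-Ph-IAA was added to prexasertib (-0.23, adjusted p = 0.0046). POLE2 had the lowest counts of them, with means from 6.29 to 11.3 CPM and a standard error of 0.27 or 0.28 in each comparison.

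The sliding clamp was called in opposite directions with the 2 drugs. PCNA (NCBI Gene 5111, chromosome 20, 5114953 to 5126622), the ring that tethers the polymerases and also serves repair, was at 813, 757 and 870 CPM in DMSO, 995, 983 and 1080 CPM with prexasertib, 614, 621 and 692 CPM with 5-Ph-IAA, and 799, 840 and 838 CPM with both drugs. Prexasertib libraries lay above, and 5-Ph-IAA libraries below, all the DMSO and both-drug libraries. PCNA rose by 0.33 ± 0.077 with prexasertib (edgeR adjusted p = 0.027) and by 0.36 ± 0.077 when prexasertib was added to 5-Ph-IAA (adjusted p = 0.023). It fell by 0.34 ± 0.077 with 5-Ph-IAA (adjusted p = 0.0066) and by 0.30 ± 0.077 when 5-Ph-IAA was added to prexasertib (adjusted p = 0.014). Leaving out DMSO replicate 1 or 2 or any one prexasertib library ended the first call (adjusted p up to 0.11), and 5-Ph-IAA replicate 1 or 2 or any one both-drug library the second (up to 0.14). The last call was lost without both drugs replicate 1 (adjusted p = 0.056) and with library size as the only scaling (-0.16, adjusted p = 0.071). Of the 47 genes PCNA was the one called higher with prexasertib.

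DSCC1 (NCBI Gene 79075, chromosome 8, 119833976 to 119855894), of the alternative loader that supports cohesion, was at 28.6, 25.5 and 28.4 CPM in DMSO, 22.8, 25 and 23.7 CPM with prexasertib, 16.2, 20.5 and 19.3 CPM with 5-Ph-IAA, and 12.2, 17.4 and 16.1 CPM with both drugs. The 6 libraries with 5-Ph-IAA lay below the 6 without it. It fell by 0.56 ± 0.13 with 5-Ph-IAA (edgeR adjusted p = 0.0086) and by 0.65 ± 0.14 when 5-Ph-IAA was added to prexasertib (adjusted p = 0.0048), and both calls held on leaving out each library. Of the RFC subunits, which open the clamp, RFC3 and RFC4 fell by 0.36 ± 0.12 and 0.37 ± 0.1 with 5-Ph-IAA (adjusted p = 0.044 and 0.02). Both calls were lost without DMSO replicate 3 or 5-Ph-IAA replicate 1, and with library size as the only scaling (-0.20, adjusted p = 0.18, and -0.21, adjusted p = 0.15). RFC3 also lost it without DMSO replicate 1, prexasertib replicate 1, 5-Ph-IAA replicate 2 or both drugs replicate 2, and RFC4 without 5-Ph-IAA replicate 3. With numbers 1 and 2 only RFC4 was at -0.25 (adjusted p = 0.055), and with the strict filter RFC3 was at -0.32 (adjusted p = 0.055). RFC1, the large subunit, fell by 0.35 ± 0.081 for both drugs against 5-Ph-IAA (adjusted p = 0.037), and that call was kept on leaving out replicate 2 or 3 of DMSO, replicate 1 or 3 of prexasertib or replicate 3 of 5-Ph-IAA and lost without any other library (adjusted p up to 0.2). By edgeR without the block, RFC2, RFC5 and CHTF18 were called in none of the 4 drug comparisons. The block called RFC2 lower with 5-Ph-IAA alone (-0.42, adjusted p = 5.5e-06) and added to prexasertib (-0.39, adjusted p = 4.7e-05). RFC2 was called lower in both on numbers 1 and 2 only (-0.35 and -0.43, edgeR adjusted p = 0.0018 and 0.00042). With prexasertib alone the block called RFC1, RFC3, RFC4 and RFC5 lower, by 0.28, 0.36, 0.35 and 0.22 (adjusted p = 0.0046, 0.00034, 0.005 and 0.014). It also called RFC3 lower for both drugs against either single drug (-0.27, adjusted p = 0.0043, and -0.28, adjusted p = 0.0071) and RFC1 higher with 5-Ph-IAA (0.22, adjusted p = 0.0082). RFC5 overlaps WSB2 on the opposite strand.

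RPA, which coats single-stranded DNA, had 0 of 3 genes called in the 4 drug comparisons by edgeR without the block, DESeq2 or limma-voom. Of all genes tested, edgeR called 1.26% to 12.2% lower in these comparisons and 1.17% to 9.65% higher. In the 4 comparisons 1 value, that of RPA2 with 5-Ph-IAA, had an unadjusted p under 0.05. RPA1 (NCBI Gene 6117, chromosome 17, 1830005 to 1900082) was at 247, 232 and 274 CPM in DMSO, 219, 233 and 280 CPM with prexasertib, 239, 254 and 281 CPM with 5-Ph-IAA, and 251, 277 and 289 CPM with both drugs. RPA2 (NCBI Gene 6118, chromosome 1, 27891524 to 27914797) was at 40.9, 41.4 and 55.8 CPM, 36.6, 40.7 and 48.1 CPM, 32.6, 29.2 and 44.6 CPM, and 29.6, 30.2 and 38.1 CPM in the same order. The RPA1 groups overlapped throughout, and in RPA2 the library numbered 3 was the highest of each group. RPA2 gave -0.38 ± 0.17 with 5-Ph-IAA (edgeR adjusted p = 0.14) and -0.36 ± 0.18 for both drugs against prexasertib (adjusted p = 0.19), which the block called lower (adjusted p = 0.00015 and 0.00065). Both were also called lower on numbers 1 and 2 only (-0.40 and -0.38, edgeR adjusted p = 0.0015 and 0.0045). RPA1 was called higher for both drugs against prexasertib by the block (0.16, adjusted p = 0.013), with numbers 1 and 2 only (0.22, adjusted p = 0.0075) and under library size alone (0.30, adjusted p = 0.026). RPA3 shares most of its length with UMAD1, so its counts are uncertain.

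Of the genes that finish lagging-strand fragments, FEN1 (NCBI Gene 2237, chromosome 11, 61792911 to 61797238), the flap nuclease, was at 160, 148 and 175 CPM in DMSO, 105, 112 and 136 CPM with prexasertib, 102, 86.9 and 114 CPM with 5-Ph-IAA, and 82.2, 81 and 107 CPM with both drugs. All 9 treated libraries lay below DMSO, and the 3 treated groups overlapped in part. FEN1 fell by 0.67 ± 0.13 with 5-Ph-IAA (edgeR adjusted p = 0.0028), a call that held on leaving out each library. With prexasertib FEN1 gave -0.45 ± 0.13 (edgeR adjusted p = 0.069, 0.031 by DESeq2 and 6.3e-08 with the block). Library size alone and numbers 1 and 2 only also called it lower there (edgeR adjusted p = 0.028 and 2.9e-06). For both drugs against prexasertib it gave -0.39 (edgeR adjusted p = 0.058, 0.032 by DESeq2 and 1.2e-06 with the block). By limma-voom neither of these 2 values was called. LIG1 (NCBI Gene 3978, chromosome 19, 48115445 to 48170344), the ligase, was at 165, 164 and 165 CPM in DMSO, 162, 169 and 183 CPM with prexasertib, 149, 137 and 149 CPM with 5-Ph-IAA, and 159, 137 and 150 CPM with both drugs. Its 5-Ph-IAA libraries lay below DMSO, with log2 fold changes of -0.18 ± 0.072 (adjusted p = 0.087) and, when added to prexasertib, -0.20 ± 0.073 (adjusted p = 0.067), and the block called both (adjusted p = 0.0063 and 0.0033).

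Among the fork protection genes WDHD1 (NCBI Gene 11169, chromosome 14, 54938949 to 55027099), which links the helicase to polymerase alpha, fell with each drug. It was at 56.8, 53.2 and 56.6 CPM in DMSO, 44.7, 41.3 and 43.4 CPM with prexasertib, 42.7, 43.8 and 45.7 CPM with 5-Ph-IAA, and 33.5, 33.4 and 34.7 CPM with both drugs. The single-drug groups overlapped, between the DMSO and the both-drug ranges. The falls were 0.36 ± 0.073 with prexasertib (edgeR adjusted p = 0.012), 0.33 ± 0.073 with 5-Ph-IAA (adjusted p = 0.0053), 0.35 ± 0.074 for both drugs against prexasertib (adjusted p = 0.0054) and 0.38 ± 0.074 for both drugs against 5-Ph-IAA (adjusted p = 0.013). Without DMSO replicate 1 or prexasertib replicate 2 the first was lost (adjusted p up to 0.066), and without 5-Ph-IAA replicate 2 or both drugs replicate 1 or 2 the last (up to 0.071). Under library size alone the 5-Ph-IAA fall was 0.18 (adjusted p = 0.069). TIPIN (NCBI Gene 54962, chromosome 15, 66336191 to 66386717), of the fork protection complex, was at 20.6, 16 and 26.2 CPM in DMSO, 16.4, 13.4 and 20 CPM with prexasertib, 25.4, 20 and 19.8 CPM with 5-Ph-IAA, and 20.4, 22.1 and 18.4 CPM with both drugs. Its groups overlapped, and by edgeR neither it nor its partner TIMELESS, at means of 150 to 156 CPM in the 4 groups, was called in the 4 drug comparisons, also with the block. With numbers 1 and 2 only, TIPIN was called higher for both drugs against prexasertib (0.50, adjusted p = 0.0076). For 5-Ph-IAA against prexasertib it was called higher by the block (0.40, adjusted p = 0.022) and under library size alone (0.59, adjusted p = 0.022).

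**Figure D3:**
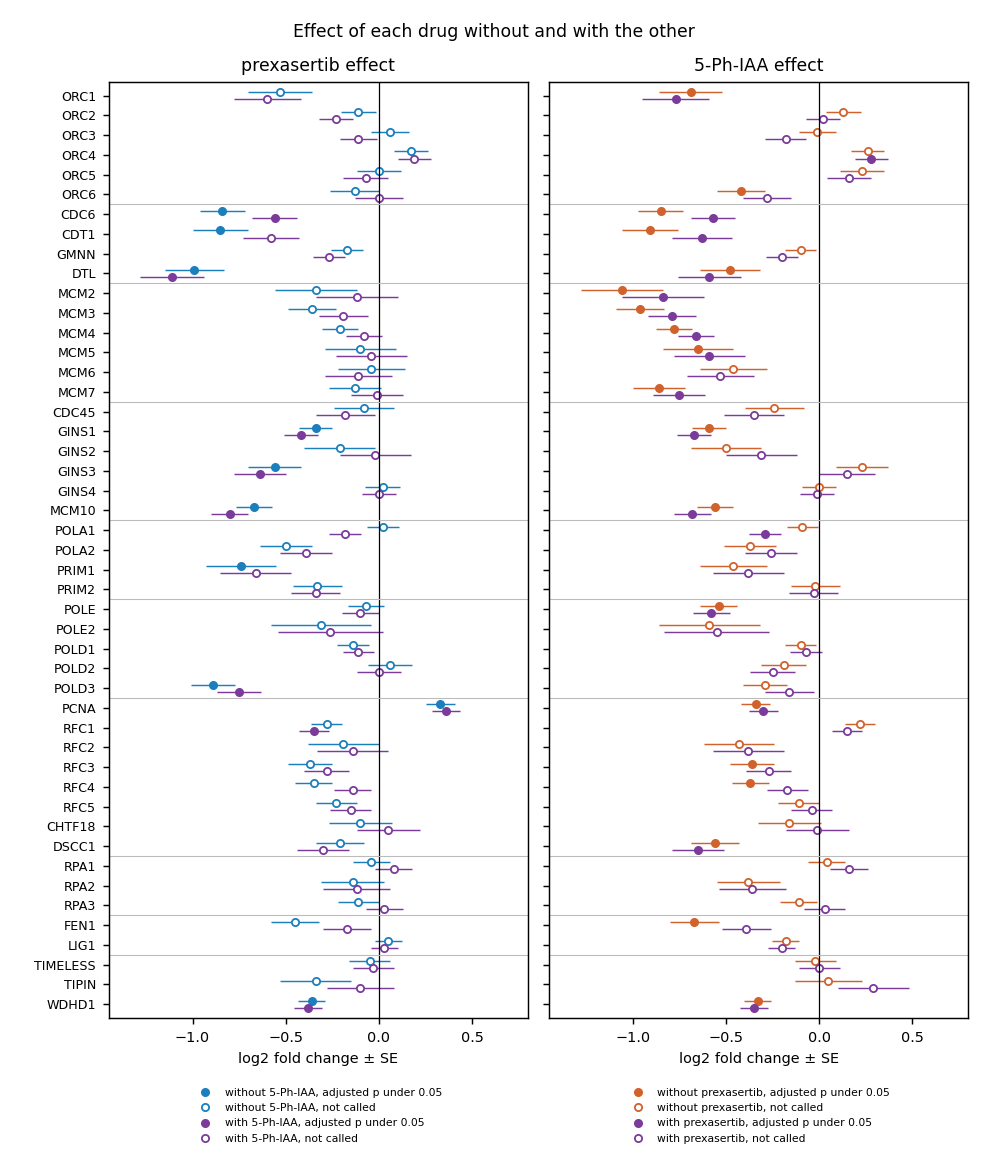
Log2 fold change ± SE of each replication gene for prexasertib (left) and for 5-Ph-IAA (right), each without and with the other drug, with filled points where the adjusted p was under 0.05. The MCM2-7 points lie between -0.36 and -0.01 on the left and between -1.06 and -0.46 on the right, whereas POLD3 and GINS3 are filled on the left only.

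Whether the drug groups differed gene by gene was tested directly as 5-Ph-IAA against prexasertib, a contrast added after the data were seen. 5-Ph-IAA was given for 6 h and prexasertib for 3 h, so drug and exposure time cannot be told apart in this contrast. Of the 47 genes 8 were lower and 4 higher with 5-Ph-IAA (17% and 8.51% of members, against 13.6% and 12.6% of all genes tested), so the count of members is near that of all genes. The block gave 17 lower and 9 higher, against 23.8% and 22.3% of all genes. Library size as the only scaling gave 5 lower and 15 higher members. It moved the median of all genes from 0.02 to 0.21 and that of the members from -0.05 to 0.14. The share of higher calls among all called genes then went from 48.1% to 80.7%. Leaving out replicate 3 of prexasertib or replicate 1 or 2 of 5-Ph-IAA left 5 lower. The 8 lower were MCM2, MCM3, MCM4, MCM5, MCM7, POLE, PCNA and LIG1, and the 4 higher were DTL, GINS3, POLD3 and RFC1. The MCM2-7 group had a median difference of -0.58, with MCM3 at -0.60 ± 0.13 (edgeR adjusted p = 0.0045), MCM4 at -0.57 ± 0.098 (adjusted p = 0.00084) and MCM7 at -0.73 ± 0.14 (adjusted p = 0.0024). MCM2 (adjusted p = 0.033) and MCM5 (adjusted p = 0.047) were not called with library size as the only scaling (adjusted p = 0.063 and 0.12). MCM2 was also lost without replicate 3 of prexasertib or replicate 1 or 2 of 5-Ph-IAA, and MCM5 without 7 of the 12 libraries (DMSO replicate 1, prexasertib replicates 1 and 3, 5-Ph-IAA replicates 1 and 2, both drugs replicates 1 and 2).

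In the same contrast PCNA was at -0.67 ± 0.077 (edgeR adjusted p = 3.7e-05), POLE at -0.48 ± 0.098 (adjusted p = 0.0031), GINS3 at 0.79 ± 0.14 (adjusted p = 0.0013), POLD3 at 0.60 ± 0.12 (adjusted p = 0.0033) and RFC1 at 0.50 ± 0.082 (adjusted p = 0.00063). These 5 differences held on leaving out each library in turn. DTL was at 0.51 ± 0.16 (adjusted p = 0.033), lost without prexasertib replicate 1 or 2 or any one 5-Ph-IAA library, and LIG1 at -0.24 ± 0.072 (adjusted p = 0.027), lost without replicate 2 or 3 of prexasertib or replicate 1 or 2 of 5-Ph-IAA and at -0.04 with library size as the only scaling. For CDC6, CDT1, MCM10 and WDHD1 the difference between the drugs was -0.01 ± 0.12, -0.05 ± 0.15, 0.12 ± 0.099 and 0.03 ± 0.073 (adjusted p = 0.97, 0.83, 0.41 and 0.8), and the first 2 turned positive under library size alone. That scaling called MCM10 and WDHD1 higher with 5-Ph-IAA than with prexasertib (0.31, adjusted p = 0.019, and 0.22, adjusted p = 0.023). A p above the threshold does not show that the drugs acted alike on these genes.

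No departure from the sum of the separate log2 effects was called. The interaction called 0 of 47 members and 0 of all genes tested (0%), by edgeR. At an unadjusted p under 0.05 it held 0 members and 519 of all genes, and DESeq2, limma-voom and the block also called 0 members. Over all genes DESeq2 called 5 higher and 0 lower, limma-voom 0, and the block 55 higher and 41 lower. Interaction values ran from -0.20 (POLA1) to 0.29 (FEN1), with a median of 0.03. Comparisons without a library in common can be set side by side. Over the 47 genes the prexasertib effect without 5-Ph-IAA and with it had Pearson's r = 0.90 and Spearman's rho = 0.82, with the same sign in 40 genes, against r = 0.51 over all genes tested. For the 5-Ph-IAA effect without and with prexasertib these were 0.93, 0.94, 44 genes and 0.74. Genes are not independent replicates, and no p is given. All genes tested were not matched to the members on count level, and their share with the same sign is not given here. Of members called with prexasertib, 8 were called in both arms (of 10 without and 9 with 5-Ph-IAA), and of those called with 5-Ph-IAA 15 (of 19 without and 17 with prexasertib). By edgeR without the block, CDC6, DTL, GINS1, MCM10 and WDHD1 were called lower in all 4 comparisons. In none of the 4 were 22 members called, and with the block this number was 7: ORC3, GINS4, POLD1, CHTF18, RPA3, TIMELESS and TIPIN. The counts called in both arms, in all 4 comparisons and in none were not made over all genes tested. They therefore have no background beside them.

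The libraries numbered 3 had higher levels of most of these transcripts than numbers 1 and 2 of the same group. Number 3 was the highest in all 4 groups for 27 of 47 members (57.4%), against 18.4% of all genes tested. Averaged over the groups, number 3 exceeded the mean of numbers 1 and 2 by 0.60 on the log2 scale for POLE2 and by 0.52 for MCM2, while CHTF18 was at -0.34. The mean log2 CPM of MCM2-7 was 6.85, 6.84 and 7.28 in the DMSO libraries and 6.10, 6.07 and 6.43 in those with 5-Ph-IAA. What sets number 3 apart is not given in the sources used here. Within the numbers, members lower in 3 of 3 numbers were 32 with prexasertib, 36 with 5-Ph-IAA, 33 for both drugs against prexasertib and 29 for both drugs against 5-Ph-IAA. The same count was not made over all genes tested, so these counts have no background beside them.

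**Figure D4:**
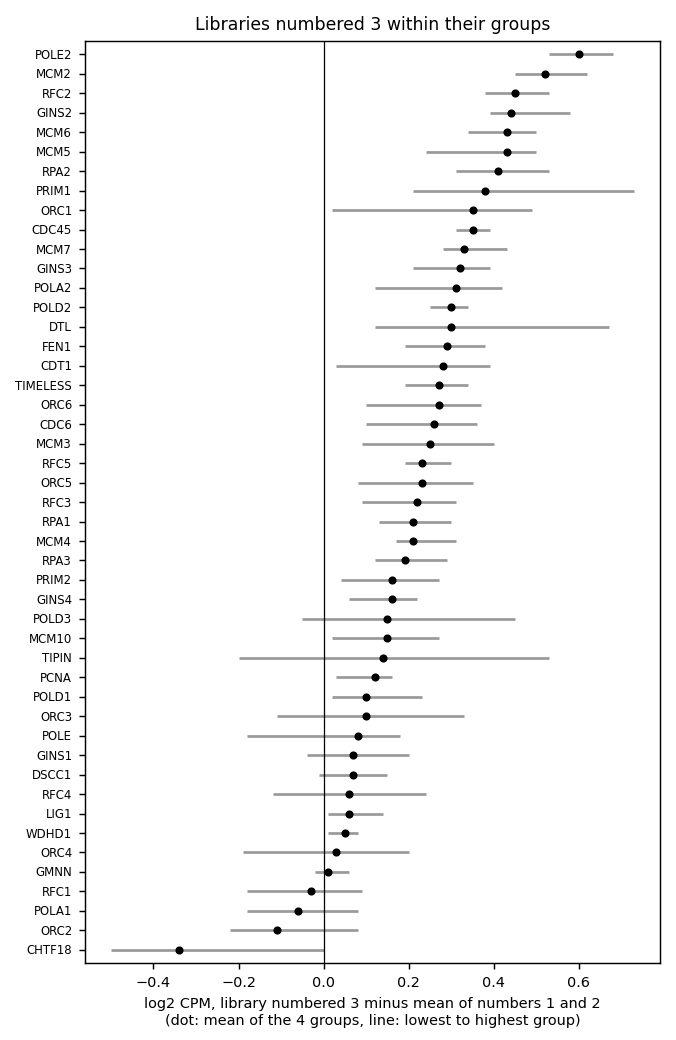
Log2 CPM of the library numbered 3 minus the mean of numbers 1 and 2, for each replication gene (dots, mean of the 4 groups; lines, lowest to highest group). Most genes lie above 0, up to 0.60 for POLE2, and CHTF18 is lowest at -0.34.

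Of 31 other genes of origin firing and replication control, such as the kinase subunits, their scaffolds and checkpoint mediators, 13 were called lower and 1 higher with 5-Ph-IAA (12.2% and 9.65% of all genes), and 3 lower and 2 higher with prexasertib (2.37% and 2.36%). The block gave 17 lower and 4 higher, and 6 lower and 3 higher, and library size alone 7 lower and 5 higher, and 4 lower and 2 higher. Their median log2 fold changes were -0.19 and -0.08. TICRR, the origin firing factor also named treslin, fell by 1.20 ± 0.092 with 5-Ph-IAA (edgeR adjusted p = 2e-06) and by 1.03 ± 0.092 when 5-Ph-IAA was added to prexasertib (adjusted p = 9e-06). Its partner MTBP rose by 0.78 ± 0.12 (adjusted p = 6e-04) and 0.50 ± 0.12 (adjusted p = 0.011). CUL4A, a scaffold of the CRL4 ligases, fell by 0.44 ± 0.063 (adjusted p = 0.00029) and 0.38 ± 0.063 (adjusted p = 0.0011), and CHTF8, a subunit of the alternative clamp loader, rose by 0.25 ± 0.066 when 5-Ph-IAA was added to prexasertib (adjusted p = 0.018). With prexasertib, CLSPN, which encodes the checkpoint mediator claspin, fell by 0.69 ± 0.1 (adjusted p = 0.0017) and TOPBP1, which activates the ATR kinase, by 0.45 ± 0.074 (adjusted p = 0.0037). The same 2 genes fell by 0.68 ± 0.1 (adjusted p = 0.0026) and 0.49 ± 0.074 (adjusted p = 0.0028) when prexasertib was added to 5-Ph-IAA. DBF4 and DBF4B, regulatory subunits of the CDC7 kinase that triggers origin firing, rose by 0.61 ± 0.12 and 0.63 ± 0.12 with prexasertib (adjusted p = 0.012 and 0.011). Neither was called higher by edgeR without the block when prexasertib was added to 5-Ph-IAA. DBF4 then averaged 43.4 ± 1.51 CPM with both drugs against 32.2 ± 2.15 CPM with 5-Ph-IAA (SD, n = 3). Its libraries with both drugs (41.7, 44.1 and 44.4 CPM) all lay above those with 5-Ph-IAA (29.9, 32.5 and 34.2 CPM). DBF4B averaged 66.8 ± 9.07 against 64 ± 4.33 CPM, and its libraries overlapped. Against prexasertib, both drugs had 11 of the 31 lower and 2 higher (10.4% and 7.85% of all genes), and against 5-Ph-IAA 4 lower and 0 higher (1.26% and 1.17%). The block gave 15 lower and 2 higher, and 6 lower and 4 higher, and library size alone 8 lower and 4 higher, and 4 lower and 0 higher. The interaction called 0 of the 31 by edgeR without the block, with values from -0.57 to 0.29. With the block 1 of the 31 was called lower there (0.28% of all genes).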

How the data were processed

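RNA was measured in 12 poly(A)-selected, directional libraries of human A549 mAID-TRRAP cells, 3 in each of 4 groups. The authors deposited a table of raw counts per gene, whole numbers that were not normalized, with 1 column per library. Per the submitters' processing notes, hg38, featureCounts 2.0.8 and limma 3.58.1 were used; no aligner, annotation or strand setting is given in the sources used here. The 13 CUT&RUN samples are not analysed here. Groups follow the sample titles. A symbol was found for 27745 of the 28395 gene numbers; the rest (650) carried 0.0324% of the counts.

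The tool was edgeR 4.0.16 (R 4.3.3). The filterByExpr filter (count 10, total 15) kept 14658 genes holding 99.92% of all counts. After TMM scaling, 1 robust quasi-likelihood model with group means was fitted to the 12 libraries. Each comparison was an F-test, adjusted by Benjamini-Hochberg over all genes tested and called under 0.05. All adjusted p-values are from this test unless another tool or the block is named. The SE is the log2 fold change divided by the square root of F. CPM are on TMM-scaled library sizes, except for the cell type markers (library size alone), and a prior count of 2 was added for log2 CPM. Variation between the libraries of a group was 12.8% (coefficient of variation, from the common dispersion of the fit without the block). It includes the offset of the libraries numbered 3 and may be technical. The procedure was tested on simulated data. No library was a duplicate: replicates differed by a chi-square per gene of 2.24 to 3.83 between numbers 1 and 2 and of 12.7 to 19.4 where number 3 took part.

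Replicate numbers come from the titles and were taken as pairing the libraries: for all 18 pairs of same-numbered libraries the deviations from the group means were correlated (r from 0.22 to 0.63). Libraries numbered 1 and 2 correlated as well across groups (r from 0.20 to 0.37), and pairs of number 3 with either were negative (-0.50 to -0.33), so the data separate number 3 from the other two and not number 1 from number 2. A second fit therefore had the number as a block. The alternatives were library size and RLE scaling, DESeq2 1.42.0, limma-voom 3.58.1, no filter, a filter of 50 counts in every group mean, the block, numbers 1 and 2 only, and each library left out. The members, the gene lists and the comparisons were chosen with earlier results of these data known, and the contrast of 5-Ph-IAA against prexasertib was added after the data were seen. Values of every library are printed for the 2 members of each of the 10 roles with the smallest adjusted p over the 5 planned comparisons (20 members); of the other replication genes, the 2 called in each direction with the smallest p are named. Promoter sequences are from RefSeq, 1 per gene, the first listed where there were several (8 members).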

Additional observations from a re-analysis of the deposited data

How the results depend on the processing

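Of 67 calls of single members over the 5 comparisons with calls, none changed sign under any alternative. Calls no longer under 0.05 numbered 12 with library size as the only scaling, 6 without a filter, 3 with the strict filter, 2 with limma-voom, 2 with numbers 1 and 2 only, 1 with RLE factors, and 0 with DESeq2 or with the replicate block. Calls that held on leaving out each of the 12 libraries were 5 of 10 for prexasertib, 13 of 19 for 5-Ph-IAA, 11 of 17 and 3 of 9 for both drugs against prexasertib and against 5-Ph-IAA, and 8 of 12 for 5-Ph-IAA against prexasertib.

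With the replicate block, which pairs the libraries by number, members lower were 20 (prexasertib), 30 (5-Ph-IAA), 30 (both drugs against prexasertib), 16 (the combination against 5-Ph-IAA) and 17 (5-Ph-IAA against prexasertib). Members higher with the block were 4 with 5-Ph-IAA, 2 for both drugs against prexasertib and 9 for 5-Ph-IAA against prexasertib. The block ended no call, and the interaction kept 0 members. With numbers 1 and 2 only, members lower were 17, 27, 15 and 15 for prexasertib, the combination against prexasertib, the combination against 5-Ph-IAA, and 5-Ph-IAA against prexasertib, and members higher were 4 with 5-Ph-IAA, 2 for both drugs against prexasertib and 8 for 5-Ph-IAA against prexasertib. Members higher with 5-Ph-IAA were 5 with library size alone, 1 with DESeq2 and 2 with the strict filter. For both drugs against prexasertib they were 3 with library size alone and 0 without a filter. For 5-Ph-IAA against prexasertib, library size alone gave 15 higher and 5 lower.

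On leaving out 1 library at a time, members lower ranged from 5 to 11 for prexasertib, 13 to 20 for 5-Ph-IAA, 11 to 18 and 3 to 10 for the combination against prexasertib and against 5-Ph-IAA, and 5 to 10 for 5-Ph-IAA against prexasertib. Members higher ranged from 0 to 1 in the first 4 of these and from 3 to 6 in the last. The cause of these changes was not tested. POLE2, at 6.29 CPM with both drugs, had standard errors of 0.27 and 0.28, and the limit that depth sets was not tested.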
